A study of Mus musculus with 155 samples.

Results

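The cells described here are 64 of the 155 single cells of the study, all sorted for green fluorescence from Gad67-GFP mice. They are the 27 cells that the labels name NBL, from demyelinated mice, and the 37 cells that they name NB, from healthy mice. Cells were chosen by the population name in the labels, and each was matched to its column by the name that opens its title. The study sorted 5 populations of single cells from the subventricular zone (SVZ) and the corpus callosum of adult mice and sequenced their polyadenylated RNA by SMART-Seq2, a protocol that reads full-length transcripts of 1 cell per well. The other 3 populations carry an Olig2-Tomato reporter, alone (O and OL) or with Gad67-GFP (OligNBL). By the labels, OL and OligNBL cells were taken 6 days after the lesion, and O cells had none. The titles of the OligNBL cells nevertheless carry "cont", as those of the NB and O cells do.

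Both groups share the strain, CB6-Tg(Gad1-EGFP)G42Zjh/J, and the age, 8 to 10 weeks. NB mice were healthy and received no injection. NBL mice had received LPC (lysophosphatidylcholine, a lipid that strips myelin where it is injected) and were used 6 days later. The controls had no sham injection, so demyelination and the injection itself cannot be told apart. The green reporter is driven by the promoter of Gad1, the gene of the GABA-producing enzyme Gad67. In the cortex this line is best known for marking parvalbumin interneurons, so green cells of the dissected tissue need not all be neuroblasts. Each condition had 5 mice per the labels, which do not say from which of them a cell came. Each population was therefore taken as 1 sample, no p-value was computed between them, and the SDs below are between cells.

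Neuroblasts are the migrating young neurons that the adult SVZ makes throughout life. They travel in chains to the olfactory bulb, carry doublecortin (Dcx) on their microtubules, and mature mostly into GABA-producing interneurons. When the overlying white matter loses its myelin, SVZ cells are known to leave this path and enter the corpus callosum. The study's title names a conversion of neuroblasts into oligodendrocytes as its question, and the comparison of NBL with NB asks what the green cells themselves look like after the lesion.

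The deposited table holds 3422 genes. The level of a gene in a population stands for its log2(value + 1), averaged across the cells, and a difference is the NBL level minus the NB level. A difference of at least 2 is called here a higher or a lower gene. The number of genes above 0 in a cell ran from 470 to 3422 in NB (median 1117) and from 559 to 1763 in NBL (median 1161). NB cell 2 stood apart: all 3422 genes were above 0 in it, but 353 of them reached a value of 1, fewer than in any other NB or NBL cell (470 to 1231). Without that cell, 329 of the 334 higher genes and 284 of the 287 lower genes given below kept their call.

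The cells carry numbers that run on from NB (1 to 56) to NBL (57 to 84), with gaps, some of which hold the numbers of OligNBL and O cells. Neighbouring numbers were grouped into 4 runs of NB cells (1 to 6, 22 to 35, 36 to 45 and 46 to 56, with 6, 11, 10 and 10 cells) and 3 runs of NBL cells (57 to 65, 66 to 75 and 76 to 84, with 9 cells each). The labels do not say what a run of numbers shares, such as a plate, a day or a mouse. Runs are used here as a check: the runs of a gene are called apart when every NBL run mean lies above, or below, every NB run mean. No run holds cells of both populations. The lesion therefore cannot be told apart from whatever else the runs of 1 population share, also for genes with runs apart. The mean correlation between cells of the same run was 0.39 to 0.65. Between different runs of the same population it was 0.20 to 0.37 in NB and 0.22 to 0.39 in NBL. It was 0.22 to 0.35 between the NBL cells 57 to 65 and the NB runs, and 0.11 to 0.19 between the other NBL cells and the NB runs. The NBL cells 57 to 65 thus stood closer to the healthy cells than the other NBL cells did, about as close as healthy runs stood to each other. Values without them are given below.

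Promoters of 4 genes are shown to give the sequences behind strongly changed genes. They belong to the 2 leading genes in each direction with the largest difference among those with a single start in the promoter table, so genes with larger differences, such as Rbm39 and Ypel5, are left out. They are those of Scg5 and Scaf11, higher in NBL, and of Ids and Map2, lower in NBL. Scg5 encodes the secretory chaperone 7B2, Scaf11 a splicing-associated factor, Ids the lysosomal enzyme iduronate 2-sulfatase and Map2 the dendritic microtubule protein. Each runs 5′ to 3′ on the gene's own strand, from 250 bases before to 50 bases after the start, from RefSeq on GRCm38.p6. They lie at chr2:113829042-113829341 (minus strand), chr15:96460794-96461093 (minus), chrX:70365036-70365335 (minus) and chr1:66175079-66175378 (plus). Capitals mark the GC box GGGCGG and its reverse complement CCGCCC, with overlapping matches joined.
Scg5: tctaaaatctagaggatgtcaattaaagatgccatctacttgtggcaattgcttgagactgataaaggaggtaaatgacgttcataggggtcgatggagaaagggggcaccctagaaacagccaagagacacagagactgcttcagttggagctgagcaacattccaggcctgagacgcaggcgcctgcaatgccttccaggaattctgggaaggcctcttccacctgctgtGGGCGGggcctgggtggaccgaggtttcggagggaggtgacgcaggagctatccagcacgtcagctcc
Scaf11: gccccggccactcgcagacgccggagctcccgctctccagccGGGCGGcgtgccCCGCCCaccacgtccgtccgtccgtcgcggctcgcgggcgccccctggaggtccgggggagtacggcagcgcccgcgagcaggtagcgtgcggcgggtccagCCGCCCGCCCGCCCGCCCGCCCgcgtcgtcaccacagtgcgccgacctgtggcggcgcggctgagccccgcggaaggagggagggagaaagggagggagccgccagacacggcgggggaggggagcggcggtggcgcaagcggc
Ids: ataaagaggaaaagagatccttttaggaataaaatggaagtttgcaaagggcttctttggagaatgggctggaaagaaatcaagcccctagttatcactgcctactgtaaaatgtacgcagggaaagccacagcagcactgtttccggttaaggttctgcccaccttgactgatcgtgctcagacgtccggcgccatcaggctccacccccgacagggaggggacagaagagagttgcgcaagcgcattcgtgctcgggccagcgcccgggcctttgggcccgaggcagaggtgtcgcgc
Map2: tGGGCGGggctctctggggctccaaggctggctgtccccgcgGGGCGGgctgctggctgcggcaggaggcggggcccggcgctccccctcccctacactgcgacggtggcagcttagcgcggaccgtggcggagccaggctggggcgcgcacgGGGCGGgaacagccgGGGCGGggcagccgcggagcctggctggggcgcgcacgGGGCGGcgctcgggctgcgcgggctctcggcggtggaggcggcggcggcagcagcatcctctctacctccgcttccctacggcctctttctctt

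The GC box occurred 1 time in the Scg5 promoter, 7 times in that of Scaf11, 5 times in that of Map2 and not in that of Ids. Of the 30 leading genes named below, 14 had a single start in the promoter table. On either strand, the box was present in 73 promoters of higher genes with runs apart (69.5% of those in the table with a single start) and in 25 of 33 promoters of lower genes with runs apart (75.8%). It was present in 67.1% of the 1965 promoters of measured genes and in 35.2% of all 22862. The CCAAT box (CCAAT) was in 39% and 33.3% of the higher and lower sets, against 40.3% of the measured genes. The TATA box (TATAAA) was in 4.76% and 9.09%, against 7.79%. The homeodomain core TAATTA, read on both strands, was in none of either set and in 2.75% of the measured genes. All 4 shares in the changed genes lay near those of the measured genes, and a match describes letters only.

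The label was first checked against 4 neuroblast markers. Dcx, the doublecortin gene (chrX:143855842-143933311), had a lowest, median and highest level of 0, 4.35 and 18.99 in NB cells and of 0, 4.43 and 14.52 in NBL cells. The populations overlapped over the whole range, and the difference was -0.33 (NB 5.46 ± 5.34, SD, n = 37 cells; NBL 5.14 ± 2.95, n = 27). Within NB the run means of Dcx were 4.08, 4.41, 12.10 and 0.82. Dcx was thus high in the cells 36 to 45 and close to 0 in the cells 46 to 56 of the same healthy population, a wider range than the 3.86 to 6.77 of the NBL runs. Dcx was among the 500 highest genes in 58.3% of the 36 NB cells with at least 500 genes above 0 (95% Clopper-Pearson interval 40.8 to 74.5) and in 85.2% of the 27 NBL cells (66.3 to 95.8). These intervals cover counting error only and take each cell as independent of the others. In the Tomato cells, which should hold few neuroblasts, the same share was 17.24% (O) and 22.73% (OL).

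The other markers split in direction. Nrep, which encodes the neuronal regeneration related protein P311 (chr18:33437019-33464029), ran from 0 to 11.35 in NB cells with a median of 0, and from 0 to 18.14 in NBL cells with a median of 9.29. Its level was 0.67 ± 2.01 in NB and 8.01 ± 5.18 in NBL, and 1 NB cell and 17 NBL cells were above 5. Among the 5 NBL cells numbered 57 to 61, 4 had Nrep at 0, like most NB cells. Elavl4 (HuD, a neuronal RNA-binding protein, chr4:110203722-110351909) had a highest level of 2.92 in NB and a median of 2.29 and a highest of 18.99 in NBL. Its NBL run means were 0.46, 3.45 and 10.43, so the difference of 4.63 rested mostly on the cells 76 to 84. Sp8, a transcription factor of olfactory bulb interneuron precursors (chr12:118846329-118852576), went the other way. It ran from 0 to 18.99 with a median of 8.88 in NB cells and from 0 to 4.37 with a median of 1.51 in NBL cells. Of the NB cells, 22 were above 5, and no NBL cell was. The share of cells with Sp8 among the 500 highest genes was 66.7% (49 to 81.4) in NB and 18.5% (6.3 to 38.1) in NBL.

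At least 1 of the 4 markers was above 5 in 25 of 37 NB cells and in 25 of 27 NBL cells. No cell of either population had all 4 above 5. No marker was high throughout either population: Dcx was close to 0 in the NB cells 46 to 56, Nrep and Elavl4 were near 0 in most NB cells, and Sp8 was low in NBL.

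**Figure D1:**
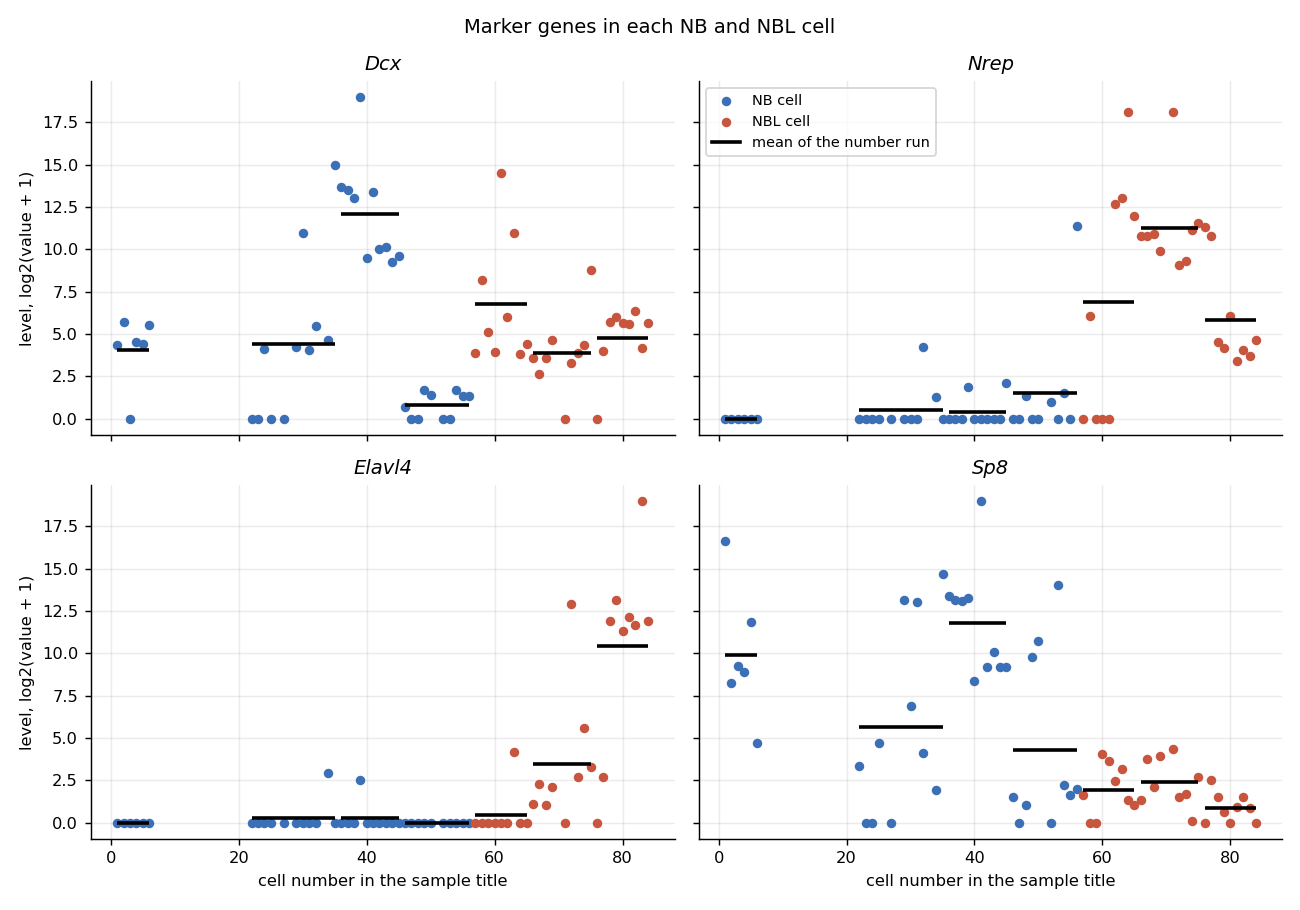
Levels, log2(value + 1), of Dcx, Nrep, Elavl4 and Sp8 (vertical axis) in each NB cell (blue) and NBL cell (red) against the cell number of its title, with black lines for the mean of each number run. Dcx overlaps between populations and peaks in the NB cells 36 to 45 (mean 12.10), Nrep and Elavl4 are higher in NBL, and no NBL cell has Sp8 above 4.37.

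A longer neuroblast list also divided. It includes Dcx, Nrep, Elavl4 and Sp8, so its counts are not independent of the markers above. Of its 30 measured genes, 6 were higher and 7 lower in NBL, that is 20% and 23.3%. Nrep and Elavl4 are among the higher and Sp8 is among the lower. Over all 3422 genes, 334 (9.76%) were higher and 287 (8.39%) lower. The median difference of the list was 0.46, against -0.0036 over all genes. Etv1, a transcription factor of SVZ-born interneurons, was 0.31 ± 0.86 in NB and 6.79 ± 5.30 in NBL, and Marcksl1, an actin-regulating substrate of protein kinase C, was 1.66 ± 3.07 and 7.63 ± 4.59. The remaining called genes of the list are named here after their values were seen. Tubb3 (neuronal β-tubulin) and Dpysl3 (the growth cone protein CRMP4) were higher, with differences of 4.01 and 4.02. Stmn2 and Stmn1 (stathmins, which regulate microtubules), Cd24a (a surface glycoprotein used to sort neuroblasts), Igfbpl1, Tiam2 (a Rac activator) and Bcl11b (the transcription factor Ctip2) were lower, with differences from -4.41 (Stmn2) to -2.31 (Tiam2). Stmn2 was above 5 in 17 NB cells and in 1 NBL cell.

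Of the genes of the reporter and of GABA synthesis, EGFP alone reached a difference of 2 among the 3 given here. EGFP, the transcript of the reporter used to sort the cells, was 5.19 ± 3.19 in NB and 2.42 ± 1.96 in NBL. Its runs overlapped: the NBL cells 57 to 65 had 3.64, near the 3.60 and 3.88 of the first NB runs. Gad1, the gene whose promoter drives the reporter, was 3.59 ± 3.26 and 1.63 ± 1.71, and Gad2, the gene of the other GABA-producing enzyme Gad65, was 0.35 ± 0.85 and 2.27 ± 2.47. Neither of the latter reached a difference of 2 (-1.96 and 1.92).

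Across all genes, the calls with runs apart were fewer than the calls by difference alone. Higher genes with runs apart made up 5.44% of the 3422 genes, and lower genes with runs apart, 64 in number, made up 1.87%. The higher genes were thus separated from all healthy runs in 55.7% of cases and the lower genes in 22.3%. The calls also depended on which runs were compared. Of the lower genes, 28.2% of the 287 were also lower by 2 against the NB cells 1 to 6 alone, and 49.8%, 57.5% and 61% against the other NB runs. For the 334 higher genes the same shares were 87.7%, 92.8%, 89.5% and 92.2%. By NBL run the higher genes had the lower shares: 29.9%, 65.3% and 85.9% of the higher genes were also higher by 2 in the NBL cells 57 to 65, 66 to 75 and 76 to 84, each against all NB cells, and 59.6%, 94.4% and 94.4% of the lower genes were also lower by 2. Without the NBL cells 57 to 65, genes with runs apart made up 9.67% (higher) and 6.22% (lower) of all genes, and without the NB cells 1 to 6, 6.72% and 5%. The amount added before the logarithm also set the counts: with 10 in place of 1, 5.49% of genes were higher and 3.95% lower, and with 0.1, 16% and 13.6%.

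**Figure D2:**
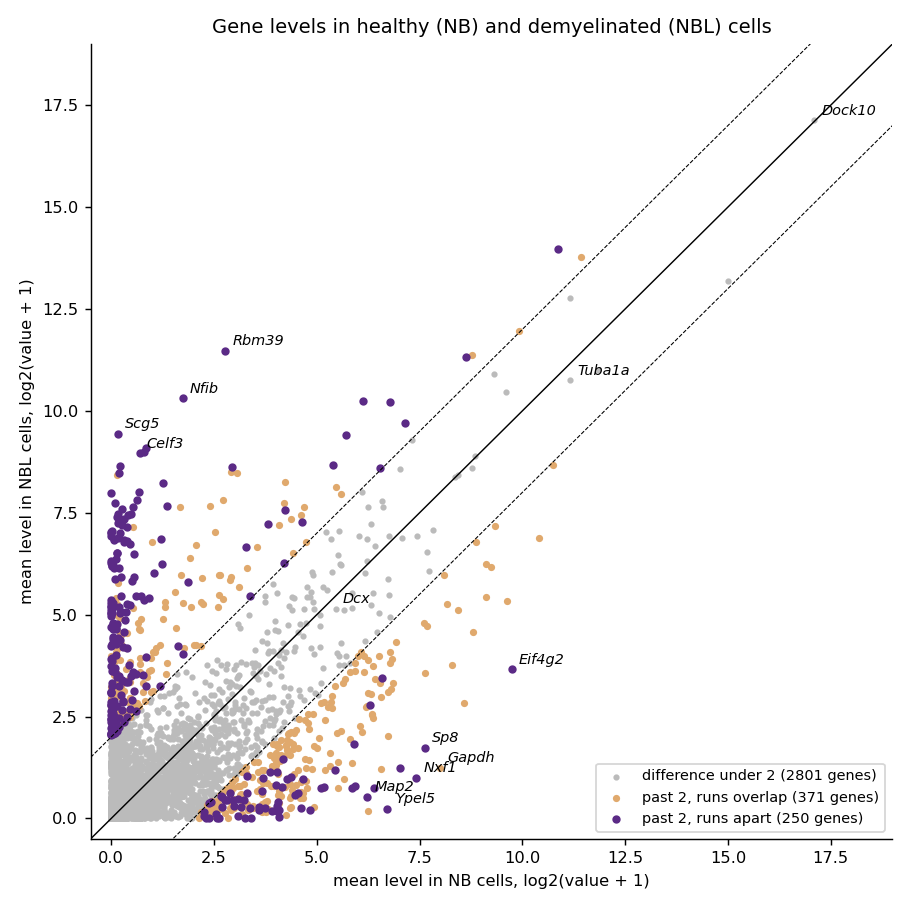
Mean level of each of the 3422 genes in NB cells (horizontal axis) and NBL cells (vertical axis), both as log2(value + 1), with the line of equal levels and dashed lines at a difference of 2. Most higher genes with runs apart (purple) lie along the vertical axis, near 0 in NB, whereas Dock10, Tuba1a and Dcx lie close to the line of equal levels.

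The 15 leading higher genes, those with the largest difference among genes with runs apart and detected in at least 25% of NBL cells, were mostly near 0 in healthy cells. They were, in order, Scg5, Rbm39, Nfib, Scaf11, Map7d1, Celf3, Pde4dip, Zfp422, Aifm1, Mtor, Nrep, Zfp821, Arf1, Idh1 and Caprin1. Their differences ran from 7.17 (Caprin1) to 9.28 (Scg5). Since these genes were chosen for their difference, the values that follow describe them and do not test them.

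Scg5 (7B2, the chaperone of the prohormone convertase PC2, chr2:113776362-113829121) ran from 0 to 2.38 in NB cells with a median of 0. In NBL cells it ran from 0 to 18.99 with a median of 10.74. It was above 5 in 18 NBL cells and in no NB cell, so the populations overlapped only at the low end. Its NBL run means were 4.40, 15.20 and 8.73. Among the 500 highest genes it was found in none of 36 NB cells (0%, upper bound 9.74) and in 77.8% of NBL cells (57.7 to 91.4).

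Nfib (nuclear factor I/B, a transcription factor of neural progenitors and glia, chr4:82290173-82705750) had a lowest, median and highest level of 0, 0.93 and 8.84 in NB and of 0, 11.94 and 20.19 in NBL. The first NB run and the first NBL run lay close together, at 3.73 and 4.49, whereas the other NBL runs were at 14.14 and 12.30. Its relative Nfia was even between the populations, at 6.42 ± 4.07 and 6.68 ± 2.96. The OligNBL cells, which were also labelled by the Gad67 reporter, had Nfib at 9.97, and the O and OL cells at 1.92 and 1.99.

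Rbm39, a splicing cofactor (chr2:156147239-156180238), had the highest healthy level of the 15 (2.78 ± 3.32 in NB, 11.47 ± 5.06 in NBL). It ran from 0 to 14.02 with a median of 2.52 in NB and from 1.45 to 20.19 with a median of 13.12 in NBL. All NBL runs were high, at 10.66, 14.08 and 9.67, so it did not depend on the NBL cells 66 to 84. Celf3, a neuronal regulator of alternative splicing, was 0.69 ± 2.54 in NB and 8.96 ± 4.78 in NBL, and it was above 5 in 2 NB cells and 22 NBL cells. Caprin1, an RNA granule protein of neurons, was 0.63 ± 1.64 and 7.80 ± 6.13.

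Mtor, the growth kinase that senses nutrients (chr4:148448611-148557683), ran from 0 to 3.75 in NB cells and from 0 to 18.99 with a median of 5.87 in NBL cells. It was above 5 in 14 NBL cells and in no NB cell. The NBL run means were 2.50, 12.96 and 7.78. Of 20 measured genes of an mTOR and PI3K list, 2 were higher (10%, against 9.76% of all genes) and none was lower. The higher genes were Mtor and Lamtor3, a scaffold that tethers the kinase complex to lysosomes. Both had runs apart. Others stayed under 2 either way, among them Lamtor2 (-1.66) and Akt1s1, an inhibitory mTOR partner (-1.46), and the list's median difference was -0.14.

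Aifm1, a mitochondrial flavoprotein released in one form of cell death, was at most 0.01 in every NB cell, the 0.01 being in NB cell 2, and had a median of 4.27 in NBL, with run means of 2.60, 15.77 and 5.55. Idh1, the cytosolic isocitrate dehydrogenase, was 0.15 ± 0.61 and 7.41 ± 5.92. Arf1, a GTPase of Golgi vesicle budding, was 0.16 ± 0.81 and 7.46 ± 5.34. Map7d1, a microtubule-binding protein, was 0.18 ± 0.51 and 8.47 ± 5.04, and Pde4dip, a centrosomal and Golgi scaffold, was 0.84 ± 2.04 and 9.08 ± 6.23. Zfp422 and Zfp821, both zinc finger proteins, had differences of 8.19 and 7.31. In each of these 7 genes the NBL cells 66 to 75 were the highest run.

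The leading higher genes came together in the same cells. In NB cells, 0 to 2 of the 15 were above 5 (median 0). In NBL the medians were 3 in the cells 57 to 65 (1 to 8), 15 in the cells 66 to 75 (all 15 in all 9 cells) and 11 in the cells 76 to 84 (7 to 15). In total 11 NBL cells, numbered between 66 and 77, had all 15 above 5, and the other 16 NBL cells had 1 to 11. Cells 76 and 77 resembled the preceding run: their mean correlation was 0.67 and 0.63 with the cells 66 to 75, and 0.31 and 0.35 with the rest of their own run. A mean over NBL therefore averages cells with few and with all of these genes.

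**Figure D3:**
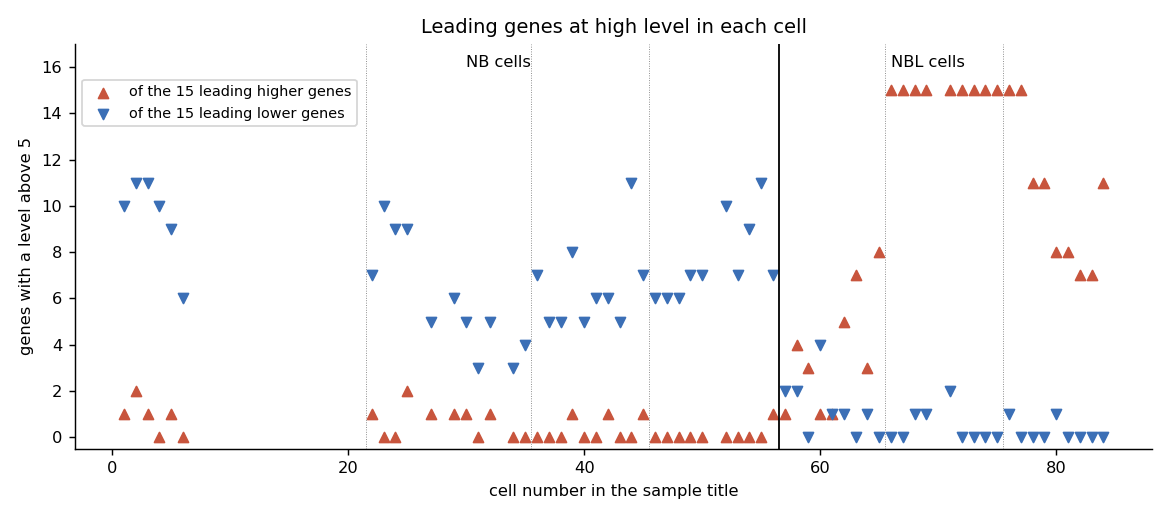
Number of the 15 leading higher genes (red upward triangles) and of the 15 leading lower genes (blue downward triangles) with a level above 5 in each cell (vertical axis), against the cell number (horizontal axis), with a solid line between NB and NBL and dotted lines between runs. NB cells have at most 2 of the higher genes, 11 NBL cells numbered 66 to 77 have all 15, and NBL cells have at most 4 of the lower genes.

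The 15 leading lower genes, by the same rule in the other direction, were Ypel5, Nxf1, Eif4g2, Sp8, Ids, Map2, Slc29a4, Gm4202, Dazap2, Prps2, Stmn2, Ahsa1, Fiz1, Atp5g1 and Pnn. Their differences ran from -4.08 (Pnn) to -6.47 (Ypel5). Between 3 and 11 of them were above 5 in each NB cell (median 7), and 0 to 4 in each NBL cell (median 0). While all of the higher genes but Scaf11 were highest in the NBL cells 66 to 75, the lower genes were highest in different NB runs: Ypel5, Nxf1, Ids, Slc29a4, Gm4202, Prps2, Fiz1 and Pnn were highest in the NB cells 1 to 6, Eif4g2, Sp8, Dazap2 and Stmn2 in the cells 36 to 45, and Map2, Ahsa1 and Atp5g1 in the cells 46 to 56.

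Map2 (chr1:66175273-66442583), the microtubule protein of dendrites, had a lowest, median and highest level of 0, 4.69 and 18.54 in NB and of 0, 0 and 3.58 in NBL. Of the NB cells 17 were above 5 and of the NBL cells none. All 4 NB runs (3.14, 3.89, 5.69 and 11.20) lay above all 3 NBL runs (1.09, 0.30 and 0.21). Stmn2, a growth cone stathmin, had NB run means of 4.21, 3.53, 9.78 and 2.95 and NBL run means of 1.92, 0.22 and 0.15.

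Eif4g2 (DAP5, a translation factor that acts without the usual cap-binding protein, chr7:111067750-111083030) was the most widely high of the lower genes. It was above 5 in 32 of 37 NB cells and in 6 of 27 NBL cells, at 9.74 ± 4.82 and 3.66 ± 3.71. Its NBL run means were 6.27, 3.48 and 1.22, and the first of them lay just under the lowest NB run (6.51). Nxf1, the main exporter of mRNA from the nucleus, was 7.42 ± 5.60 in NB and 1.00 ± 1.98 in NBL. Ypel5, a subunit of a ubiquitin ligase, was above 5 in 18 NB cells and in no NBL cell, although its NB runs ranged from 2.18 to 14.63. Ids was 7.03 ± 6.08 and 1.23 ± 1.43, Ahsa1, the activator of the chaperone Hsp90, 5.11 ± 6.19 and 0.74 ± 1.44, and Slc29a4, a monoamine transporter, 6.39 ± 6.19 and 0.76 ± 1.60. Gm4202 is annotated as a processed pseudogene, at 5.93 ± 4.87 and 0.80 ± 1.05, and whether other genes share its reads was not tested.

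**Figure D4:**
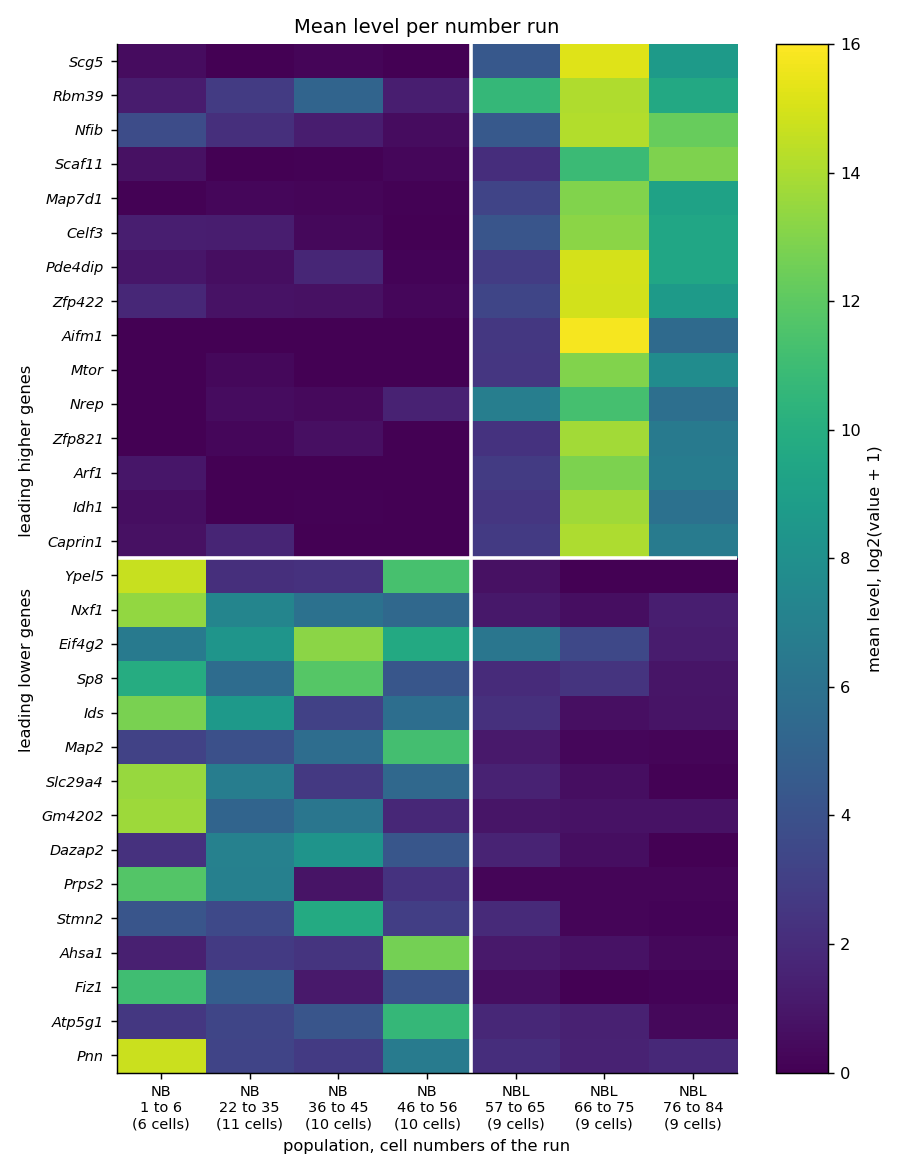
Mean level, log2(value + 1), as colour for the 15 leading higher genes (upper rows) and the 15 leading lower genes (lower rows) in the 4 NB and 3 NBL number runs (columns, with their cell numbers). All of the higher genes but Scaf11 (12.88 in the cells 76 to 84) peak in the NBL cells 66 to 75, where Scg5 reaches 15.20, while the lower genes are high in different NB runs, as Ypel5 (14.63) in the cells 1 to 6 and Map2 (11.20) in the cells 46 to 56.

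Some genes had high and near-equal levels in both populations. Dock10, a guanine exchange factor for small GTPases, was 17.10 ± 1.72 and 17.13 ± 1.22 and never under 14.02 in any cell. Tuba1a, the α-tubulin of young neurons, was 11.17 ± 3.32 and 10.75 ± 3.33. Its near-identical relative Tuba1b was lower in NBL (6.77 and 3.82), and reads of the pair may be shared between them. Gsk3b, a kinase of the Wnt and insulin pathways, and Rbm4b, an RNA-binding protein, also differed by under 0.50. Others were even on average only. The run means of Ewsr1, another RNA-binding protein, ran from 1.46 to 14.53, those of Tmcc2 from 1.67 to 14.09, those of Higd1a from 1.35 to 13.65 and those of Dhcr7 from 1.41 to 13.58.

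Grouped by function, transcription factors of neuronal and glial fate were more often higher than lower: 7 of 30 measured were higher (23.3%, against 9.76% of all genes) and 3 lower (10%, against 8.39%). With runs apart these were 6 and 1 (5.44% and 1.87% of all genes). Zeb1, a zinc finger repressor, was 0.31 ± 0.85 in NB and 6.82 ± 6.16 in NBL. Its higher group also held Zeb2, Myt1l, Foxp2 and Tcf7l2, named after their values were seen. Tcf7l2, a Wnt effector that is also used in oligodendrocyte differentiation, was 4.20 ± 2.52 and 6.26 ± 1.89 and was above 0 in all NBL cells. Of 82 measured zinc finger genes of the Zfp, Zbtb and Zscan type, 11 were higher (13.4%) and 5 lower (6.1%). Notch1, the receptor of lateral inhibition, was 0.15 ± 0.60 and 4.97 ± 5.47, and Smad5, a BMP signal carrier, 5.51 ± 4.62 and 1.38 ± 2.85. In the list of Notch, BMP and Wnt genes, 2 of 12 were higher (16.7%) and 1 lower (8.33%).

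Genes of RNA processing moved in both directions. Of 44 measured splicing genes, 8 were higher (18.2%) and 9 lower (20.5%), both over the 9.76% and 8.39% of all genes, and the list's median difference was 0.14. Srsf6, an SR protein, was 0.48 ± 1.48 in NB and 7.47 ± 7.05 in NBL, with a mean of 15.30 in the NBL cells 66 to 75 and of 2.18 in the cells 57 to 65. Hnrnpr was also higher and Hnrnpk and Sf3b1 lower, chosen after their values were seen. Of 13 neuronal RNA-binding genes, Celf3 and Elavl4 were higher (15.4%) and none was lower. Elavl3 (HuC) was 0.63 ± 1.32 and 2.62 ± 3.73, just under a difference of 2, and the ubiquitous Elavl1 (HuR) 0.06 and 0.60.

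Chromatin regulators stood near the background: 4 of 52 were higher (7.69%) and 6 lower (11.5%), and none had runs apart. Hdac2, a histone deacetylase, was 2.53 ± 4.64 in NB and 7.01 ± 6.65 in NBL, but the NB cells 1 to 6 had 11.78 and the NBL cells 57 to 65 had 1.24. Kat6b, an acetyltransferase, was 0.36 and 4.19, with 10.43 in the NBL cells 76 to 84. Hmgn1 and Brd9 were lower, by 2.92 and 2.81.

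Among cytoskeletal genes, 8 of 63 were higher (12.7%) and 9 lower (14.3%), with a median difference of -0.21. Actr3, a subunit of the Arp2/3 complex that branches actin, was 0.23 ± 0.68 and 5.92 ± 6.12. Of 39 genes of axon guidance, migration and adhesion, 6 were higher (15.4%) and 3 lower (7.69%). Fez1, a transport adaptor of growing axons, was 0.32 ± 1.10 in NB and 4.88 ± 4.04 in NBL, with runs apart. It was higher still in the O and OL cells, at 7.37 and 8.25, and was 1.22 in OligNBL. Cdh2, N-cadherin, was 4.68 ± 4.32 and 7.64 ± 5.56, with NBL run means of 12.91, 7.35 and 2.66 that overlapped those of NB. Lrp8, the reelin receptor ApoER2 that guides neuroblasts in the olfactory bulb, was 6.34 ± 6.21 and 2.53 ± 3.27, and its NB level rested on the cells 46 to 56 (13.41).

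Genes of neurons and synapses were measured in small number. Of 13, 4 were higher (30.8%) and 2 lower (15.4%). However, 6 of the 13 had the greater mean in NBL and 7 the smaller, and the median difference was -0.05. Map2, described above, is among the lower ones. Vamp2, the synaptic vesicle SNARE protein, was 0.37 ± 1.11 in NB and 7.16 ± 5.68 in NBL. Ptpn5, the striatal-enriched phosphatase STEP, was 1.25 ± 3.46 and 8.22 ± 4.58. Ptpn5 differed from the other leading synapse genes in its runs, since the NBL cells 57 to 65 were its highest, at 10.83. Ion channels and transmitter receptors were lower where they were called: of 28, none was higher and 5 were lower (17.9%). Itpr1, the calcium release channel of the endoplasmic reticulum, was 8.79 ± 4.54 and 4.58 ± 4.17. Lrrc8a, the volume-regulated anion channel subunit, was 6.30 ± 4.48 and 2.79 ± 2.31 and was the 1 of the 5 with runs apart. Gria2, an AMPA receptor subunit, was 6.24 ± 5.14 and 3.90 ± 3.20.

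Of 97 measured genes of vesicle traffic, 18 were higher (18.6%, against 9.76% of all genes) and 9 lower (9.28%, against 8.39%), and the median difference was 0.06. Rab14, a GTPase of endosomal recycling, was 0.24 ± 0.61 in NB and 7.29 ± 5.13 in NBL. Snx17, a sorting nexin, was 0.03 ± 0.16 and 6.19 ± 6.50, with 13.28 in the NBL cells 66 to 75 and 0.55 in the cells 57 to 65. Autophagy and apoptosis genes were higher in 5 of 23 (21.7%) and lower in 1 (4.35%). Bad, a pro-death Bcl-2 relative, was at most 0.01 in NB cells and 5.12 ± 5.41 in NBL. Birc6, an inhibitor of apoptosis proteins, was 1.87 ± 1.95 and 5.81 ± 4.94, and Map1lc3b, the autophagosome protein LC3B, 0.46 ± 1.30 and 2.94 ± 2.99. Genes that promote and genes that restrain cell death were thus both among the higher ones.

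Genes of protein quality control moved in both directions. Of 30 chaperone genes, 2 were higher (6.67%) and 6 lower (20%), and the median difference was -0.48. Cct7 and Tcp1, subunits of the TRiC chaperonin, were 6.21 ± 5.98 and 4.92 ± 4.83 in NB and 2.72 ± 3.46 and 1.78 ± 2.22 in NBL. Hspa8, the constitutive Hsc70, went the other way, at 2.65 ± 3.04 and 5.96 ± 3.78. Of 118 proteasome and ubiquitin genes, 16 were higher (13.6%) and 19 lower (16.1%). Psmd7, a lid subunit of the proteasome, was at most 0.01 in NB cells and 7.01 ± 5.96 in NBL, and Psmb6, a catalytic subunit, 0.15 ± 0.66 and 5.25 ± 5.40. Trim45, a ubiquitin ligase, was at most 0.01 in NB and had a mean of 13.76 in the NBL cells 66 to 75 against 0.44 in the cells 57 to 65.

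Translation and ribosome genes were near or under the background. Of 48 cytosolic ribosomal protein genes, 2 were higher and 2 lower (4.17% each), none with runs apart. Rps10 was among the higher, by 3.10, and Rps27a and Rps27l were lower. Ribosomal protein genes have many near-identical pseudogenes, so their values are uncertain. Of 27 translation factors, 2 were higher and 2 lower (7.41% each, against 9.76% and 8.39% of all genes). Eif5a, an elongation factor that carries the amino acid hypusine, was 0.54 ± 1.47 in NB and 7.65 ± 4.63 in NBL, and it was already high in the NBL cells 57 to 65 (8.99). Eif1, which helps to choose the start codon, was high in both, at 11.44 ± 3.62 and 13.77 ± 1.98. Eif4g1, the cap-dependent scaffold, was 3.66 ± 5.03 and 0.16 ± 0.46.

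Genes of energy metabolism had calls in both directions. In glycolysis, Gapdh was 8.01 ± 5.71 in NB and 1.24 ± 1.99 in NBL, and it was above 5 in 24 NB and 2 NBL cells. Its runs overlapped only through the NB cells 1 to 6, which had 1.17. Pkm, which makes pyruvate, was 0.10 ± 0.44 and 4.29 ± 5.41, with 9.70 in the NBL cells 76 to 84. These were the only called genes among 8 measured (12.5% each way, against 9.76% and 8.39% of all genes). Of 52 nuclear genes of the respiratory chain, 7 were higher (13.5%) and 2 lower (3.85%). Ndufv2 and Ndufb11, both of complex I, were 0.06 ± 0.26 and at most 0.01 in NB and 6.83 ± 5.30 and 5.03 ± 5.45 in NBL. ATP synthase genes split, with Atp5a1 at 0.38 ± 1.13 and 5.25 ± 4.22 and Atp5g1 at 5.43 ± 5.05 and 1.19 ± 2.17. Of 7 mitochondrially encoded genes, mt-Co1 was higher (14.3% of the list), at 1.93 ± 2.45 and 5.19 ± 3.80, and none was lower.

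Lipid and transporter genes showed few calls. Sc5d, of the last steps of cholesterol synthesis, was 0.04 ± 0.25 in NB and 2.59 ± 2.69 in NBL. Of 43 solute carriers, Slc19a2, a thiamine transporter, was higher and Slc29a4 lower (2.33% each, against 9.76% and 8.39% of all genes).

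**Figure D5:**
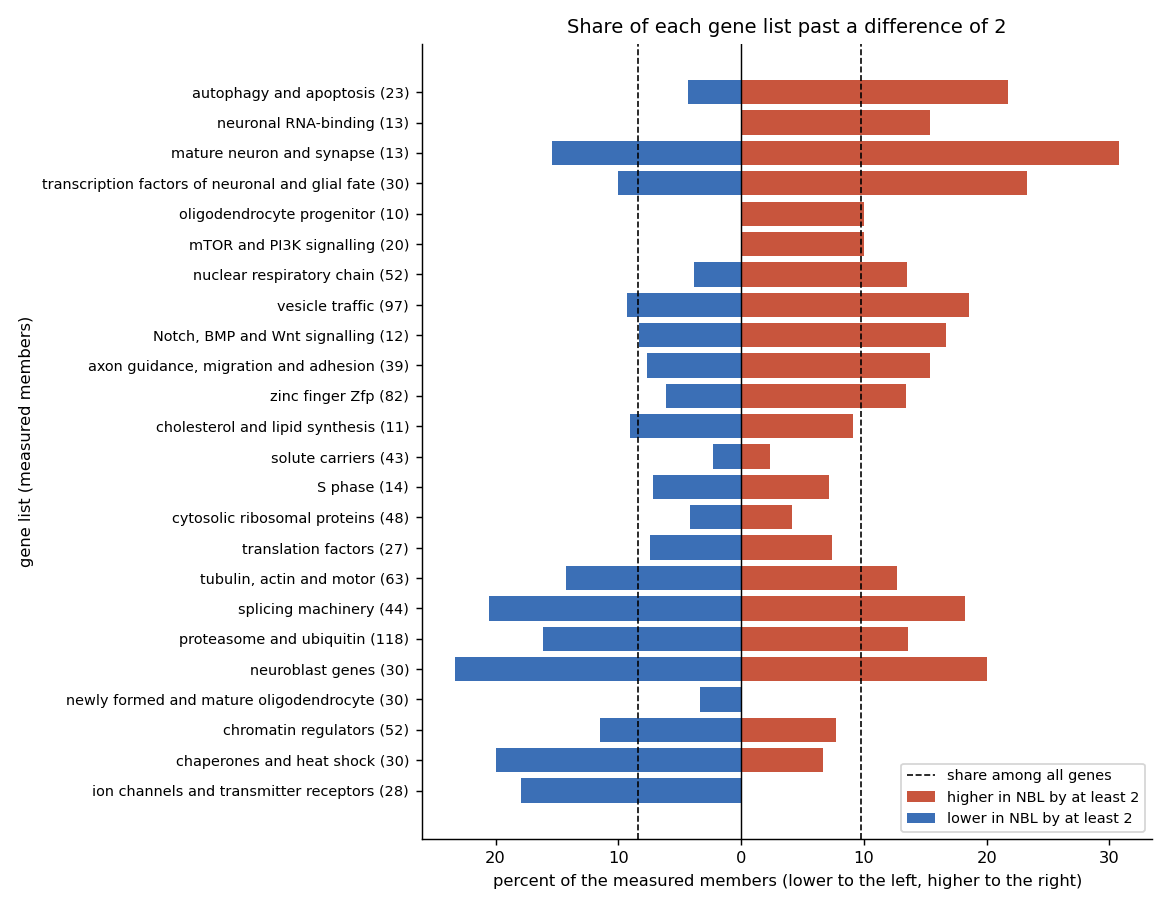
Percent of the measured members of each gene list (vertical axis, member number in brackets) that were higher (red, to the right) or lower (blue, to the left) in NBL by at least 2, with dashed lines at the shares of all genes, 9.76% and 8.39%. Mature neuron and synapse genes reach 30.8% higher and 15.4% lower, and ion channels are lower only (17.9%). Neuroblast genes, with Dcx, Nrep, Elavl4 and Sp8 counted among them, exceed the background on both sides (20% and 23.3%).

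Oligodendrocyte genes bear on the question in the study's title. Of 10 progenitor genes, 1 was higher and none lower. That share of 10% was close to the 9.76% of all genes that were higher. By mean, 7 of the 10 were greater in NBL and 3 smaller, with a median difference of 0.37. The summed level of the list ran from 0 to 20.18 in NB cells (median 4.42) and from 0 to 43.39 in NBL cells (median 7.16). The higher gene was Pdgfra, the growth factor receptor of oligodendrocyte progenitors. It ran from 0 to 6.13 in NB cells and from 0 to 12.59 in NBL cells, with 2 and 6 cells above 5. The NB cells 1 to 6 had 3.42, within the NBL run means of 1.74 to 4.06. Olig1, a transcription factor of the lineage, was at most 0.41 in NB cells and reached 7.93 in NBL, with 5 of 27 cells above 5 and a level of 0.01 ± 0.07 and 1.52 ± 2.45. Pcdh15, a protocadherin enriched in these progenitors, was 0.15 ± 0.40 and 2.14 ± 2.77. Sox10 was low in both (0.14 and 0.53), and Cspg4 (NG2) went the other way, at 0.81 ± 1.72 and 0.11 ± 0.52. In OL cells, from the same kind of lesion, Sox10 was 4.47, in O cells 1.94 and in OligNBL cells 0.58.

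Of 30 measured genes of newly formed and mature oligodendrocytes, none was higher and 1 was lower (3.33%, against 8.39% of all genes). The lower gene was Stmn4, at 6.59 ± 2.98 in NB and 3.45 in NBL. Stmn4 is also a neuronal stathmin. Tubb4a, a β-tubulin that neurons share, was 3.97 ± 5.49 and 1.97. Mbp, Mag, Mog and Mobp, which encode myelin proteins, were between 0.01 and 0.13 in both populations, and 8 of the 30 genes were at 0 in every NBL cell, among them Cldn11, Mal and Opalin.

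Markers of other cells that the gate could hold were given the same count. Of 15 mature interneuron genes, only 2 were measured and neither was called. The 1 of them above 0 in at least 10% of the cells of either population had the greater mean in NBL. Of 22 ependymal and choroid genes, 1 was measured, and it was not called. These 2 lists could therefore hardly show whether such cells were present. Pecam1, an endothelial adhesion gene, was above 0 in all NBL cells and had a level of 6.54 ± 3.97 in NB and 8.59 ± 1.79 in NBL. This gene alone of 5 endothelial, mural and meningeal markers was higher (20%, against 9.76% of all genes). Pecam1 was also high in the Tomato populations, at 8.11 in OligNBL, 8.49 in OL and 10.53 in O, and did not mark 1 cell type in this table. The summed level of those 5 was 0 to 21.37 in NB (median 8.09) and 7.61 to 19.44 in NBL (median 11.72). Of 9 astrocyte and stem cell genes, 1 was higher (11.1%), namely Ndrg2 (0.01 and 2.30). Apoe was 0.30 and 1.62 and Fabp7 0.22 and 0.60, both short of a difference of 2, while Sparcl1 and Atp1b2 were at or near 0. Of the 6 members above 0 in at least 10% of the cells of either population, 5 had the greater mean in NBL. The summed level was 0 to 11.48 (median 3.58) and 0 to 19.03 (median 7.15). None of 4 microglia and blood markers was called, with summed levels of 0 to 17.59 (median 6.69) and 0 to 19.90 (median 7.93), and Itgam was 1.37 ± 2.75 and 1.96 ± 3.08. The part of these cell types in the differences was not tested.

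Cell cycle genes were sparse. Ccnd2, the cyclin of SVZ progenitors, was never under 2.77 in any cell, at 11.84 ± 3.18 in NB and with a difference of -0.83. Prim2, a primase subunit, was 8.62 ± 3.92 in NB and 11.32 ± 0.92 in NBL, where it was never under 9.29. It was also high in the Tomato populations, at 9.10 in OligNBL, 9.04 in OL and 10.33 in O. Its level thus did not mark cells in S phase in this table. Of 9 measured G2 and M phase genes, 3 were higher (33.3%, against 9.76% of all genes) and none lower. However, 5 of the 9 had the smaller mean in NBL, and the median difference was -0.11. Top2a, which untangles DNA, was 0.29 ± 0.68 and 4.20 ± 4.93, with 9.81 in the NBL cells 66 to 75. Bub3, a spindle checkpoint gene, was 0.02 ± 0.10 and 3.62 ± 4.69, with 8.60 in the cells 76 to 84, so the pair was not high in the same run. Of 14 S phase genes, Prim2 was higher and Rrm2 lower (7.14% each, against 9.76% and 8.39% of all genes). Nr4a1, an immediate early gene that can respond to cell handling, was at most 0.23 in NB cells and averaged 8.39 in the NBL cells 76 to 84, 0.35 in the cells 66 to 75 and 0 in the cells 57 to 65. Its part in the differences of that run was not tested.

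The Tomato cells give the same lesion in another reporter line, with no cells shared. Between OL and O, 286 genes (8.36%) were higher after the lesion and 271 (7.92%) lower. Of these, 22 were higher in both comparisons, which is 6.59% of the genes higher in NBL and 7.69% of those higher in OL. Lower in both were 16, or 5.57% and 5.9%. Of the genes that went opposite ways, 18 were higher in NBL and lower in OL, and 21 the reverse. The genes higher in NBL were thus higher in OL in 6.59% of cases, against 8.36% of all genes, and the lower genes lower in 5.57%, against 7.92%. Psmd7 and Psmb6 (higher) and Nxf1, Cct7 and Gm4202 (lower) were among the shared genes that the text names. Among those that went opposite ways, Eif4g2, Atp5g1, Gapdh and Brd9 were lower in NBL and higher in OL. The reverse held for mt-Co1, Eif1, Arf1 and Pecam1. Mtor (0.19 in OL, 0.86 in O), Celf3 (0.48 and 0.20) and Scg5 (0.34 and 0.52) were near 0 in OL and O cells, though Celf3 was 3.38 in OligNBL.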

How the data were processed

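Messenger RNA of 155 sorted mouse cells was measured with 1 cell per sample; 37 NB and 27 NBL cells were compared. Per the submitters' processing notes, the authors used kallisto, limma and genome build GRCm38, with no versions or roles given. The table the authors deposited is named as estimated counts, but its values are a normalized signal: they are rarely whole, and column totals over the 5 populations run from 5155899 to 5161091, as after quantile normalization. Depth therefore cannot be read from the values, and no count model was used. The rule that selected the 3422 genes was not stated in any source used here.

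From this signal, log2(value + 1), with a pseudocount of 1, was averaged per population and per run of cell numbers. A difference of 2 made a call. No p-value was computed, since no mouse is named for any cell. Presence meant a place among a cell's 500 highest genes. List medians used members above 0 in at least 10% of the cells of either population, where at least 4 remained. The 37 gene lists and the compared cells were chosen with earlier results of these data known. Symbols caught wrongly by name patterns, and pseudogenes, were taken out of the lists after values were seen (for instance Tmem169, Snapc2, Actr8 and Zfp36). Named genes were the 4 markers, the 15 genes each way with the largest difference among those past 2, with runs apart and above 0 in at least 25% of the higher population's cells, up to 4 members of each list, 12 fixed genes, 10 even genes and 5 genes per population with the widest range of run means outside those 15 each way. A few genes that the rule named are not reported here, though list counts and medians include them. Gene positions are from GENCODE vM21 (GRCm38).

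No doublets were called and no cell was removed. The difference and call steps were tested on simulated data. Computation was in Python 3.11.15 (pandas 2.3.3, numpy 2.4.6, scipy 1.17.1) and plots in matplotlib 3.10.9. Alternatives tried were the pseudocount, the threshold, rare genes, cells with few genes, the weight and the leaving out of each run, within-cell ranks and the definition of presence.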

Additional observations from a re-analysis of the deposited data

How the results depend on the processing

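No paired analysis was possible because the labels tie no NB cell to an NBL cell or mouse, and the numbers only name cells. The pseudocount and the threshold set the counts, given here as percent of all genes. With a pseudocount of 10, 5.49% were higher, 3.95% lower and 3.33% higher with runs apart, and with 0.1 these were 16%, 13.6% and 8.18%. A threshold of 1 gave 17.4% higher and 17.3% lower, and of 3 gave 5.82% and 3.59%. Leaving out each run in turn gave 6.66% to 12.2% higher, 6.81% to 11% lower, 4.03% to 9.67% higher with runs apart and 2.05% to 6.22% lower with runs apart; the highest of the last 2 came without the NBL cells 57 to 65. Without the NB cells 1 to 6, 5% were lower with runs apart, and by within-cell ranks 2.86%. On the rank scale (0 to 10) the median difference of all genes was -0.1882. Of the higher genes, 190 kept their call without the NBL cells 76 to 84. Without NB cell 2, an alternative chosen after seeing the data, no count or list median moved beyond its limit (1.5 times, or 1 SD between cells). Named differences did not either, but leaving out 1 of 37 cells cannot shift a mean by 1 SD. For them this limit could not be passed.

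List medians moved by more than the SD between cells in 8 cases. The neuroblast list gave 1.02 with a pseudocount of 0.1, and the cytoskeletal list 0.17 on the rank scale. Leaving out runs, early progenitor genes ranged from -0.78 to 0.69, the latter without the NBL cells 76 to 84. Newly formed and mature oligodendrocyte genes gave 0.41 in cells with at least 1000 genes, and -0.76 over members above 0 in at least 25% of cells, where glycolysis gave 1.31, chaperones -1.16 and zinc finger genes 0.39. Why these medians moved was not tested. No difference of at least 2 of a gene named by the rule and reported here turned sign under the alternatives run. Depth per cell is unknown, so a gene listed at 0 was not detectable in these values, which is not absence.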

Other observations

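The genes Tmcc2, Higd1a and Dhcr7, even between the populations, varied together from cell to cell. Tmcc2, a coiled-coil membrane protein, Higd1a, a hypoxia-induced mitochondrial protein, and Dhcr7, of the last step of cholesterol synthesis, had Pearson correlations of 0.95 to 0.98 over the 64 cells. Within NB the 3 pairs gave 0.94 to 0.97 and within NBL 0.98 to 0.99. The cells share their library preparation and normalization, so these values describe the table and carry no p.

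Scg5, a gene higher in NBL, was near 0 in NB cells. It had a correlation of 0.94 with Pde4dip, 0.78 with Aifm1 and 0.72 with Mtor over NBL cells, and of -0.12 to -0.05 over NB cells. The genes with the pattern most like Elavl4 over the 64 cells were Clk3 (0.97), Ppp1r12a (0.94) and Cnot4 (0.94). For Nrep they were Aifm1 (0.81), Gnb2 (0.80) and Ndfip1 (0.79), for Dcx Ehmt1 (0.84), Rps27l (0.75) and Acbd5 (0.72), and for Sp8 Hagh (0.74), Kif24 (0.72) and Mrpl9 (0.69).

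Within the healthy cells, and outside the 30 leading genes, the widest range between run means belonged to Smarcc2, Rdx, Eif2b1, Heg1 and Cdc123, all at 14.25 to 16.57 in the NB cells 1 to 6 and at 0.13 to 5.27 in the other NB runs. Within NBL, leaving out the 30 leading genes (of which Aifm1 had a range of 13.17), it belonged to Trim45, Crip2, Zfp30, Srsf6 and Hdac2, all at 13.45 to 15.30 in the cells 66 to 75 and at 0.23 to 2.18 in the cells 57 to 65.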
